A study of Mus musculus with 12 samples.

Results

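The genes described here are 10 interferon-induced effectors, *Ifit1*, *Ifit2*, *Ifit3*, *Ifit3b*, *Isg15*, *Usp18*, *Rsad2*, *Mx1*, *Ifi44* and *Rtp4*, chosen by name from the 55421 genes counted in bone marrow endothelial cells of mice with cardiovascular disease. They and the gene lists set beside them were chosen with earlier results of these data known. Their counts beside shares of all genes are therefore description and not a test. All 10 had enough counts to be tested among 15999 genes. RNA was sequenced from sorted marrow cells of 12 mice aged 20 weeks, 3 in each of 4 groups, with a single library per mouse. The study asked how hypertension, atherosclerosis and myocardial infarction (MI) act on the endothelial cells of the marrow, which line its vessels and form part of the niche of blood stem cells.

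Controls were naive C57BL/6J mice. Mice with hypertension (HTN) were C57BL/6J with implanted pumps that released angiotensin II, which constricts vessels. Mice with MI were C57BL/6J whose coronary artery had been ligated, and their labels give day 2 after MI, while the study's text gives a later day. Mice with atherosclerosis (Apoe-/-) carried the knockout allele Apoe(tm1Unc) in all cells, which removes apolipoprotein E, a protein that clears lipoprotein particles from blood, and were fed a western diet. Since controls had neither the knockout nor that diet, the effects of the allele, the diet and arterial disease cannot be told apart. The same 3 controls served in every comparison with controls. Per the study's methods, marrow was first depleted of cells carrying markers of mature blood lineages (B220, CD11c and CD11b among them), and endothelial cells were sorted as TER-119-, CD41-, CD45-, CD31hi and SCA-1+.

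As background, cells that sense a virus or foreign nucleic acid secrete type I interferon, which binds the receptor pair *Ifnar1* and *Ifnar2* and acts through *Jak1* and *Tyk2*. Signaling ends at *Irf9*, which binds the interferon-stimulated response element (ISRE) as part of a complex in the promoters of many genes. IFIT proteins bind viral RNA or translation factors, ISG15 is a ubiquitin-like protein that is joined to other proteins, USP18 removes ISG15 and shuts down signaling at the interferon receptor, and RSAD2 (viperin) makes a chain-terminating nucleotide. MX1 is a GTPase that blocks influenza virus, although most laboratory strains, C57BL/6 included, carry a disrupted *Mx1* gene. RTP4 is an interferon-induced protein of the receptor transporter family, and IFI44 is an interferon-induced protein whose role is less well defined.

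The 10 genes lie on 6 chromosomes, none of them chromosome 7, which holds *Apoe*. The IFIT genes form a cluster on chromosome 19 of build GRCm38, with *Ifit2* at 34550694 to 34576419, *Ifit3* at 34583531 to 34588731, *Ifit3b* at 34607970 to 34613401 and *Ifit1* at 34640871 to 34650009, all on the plus strand. *Isg15* is on chromosome 4, *Usp18* on chromosome 6, *Rsad2* on chromosome 12, *Mx1* and *Rtp4* on chromosome 16 and *Ifi44* on chromosome 3. Of the windows of 50 bases along the exons of *Ifit3*, 51.2% occur unchanged in another gene, *Ifit3b*, and 45.0% of those of *Ifit3b* occur in another gene. The counts kept for this pair come from uniquely placed reads, so the level of each is uncertain. The share was 11.6% for *Rtp4*, with *Gm45338*, and 7.1% for *Ifit1*, with *Ifit1bl2*, and at most 4.0% for the other members. *Usp18* and *Rtp4* overlap other annotated genes, which had 21 and 10 counts over all libraries.

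Promoters were read from RefSeq's table for GRCm38.p6, which holds 7 of the 10 members, all but *Usp18*, *Mx1* and *Rtp4*. The core of the ISRE, GAAANNGAAA on either strand, was searched in the 300 bases from 250 before to 50 after each start, and it occurred in 3.44% of 32851 promoters. It was found in the promoters of 5 of the 7 members, *Ifit1*, *Ifit3*, *Ifit3b*, *Isg15* and *Rsad2*, and not in those of *Ifit2* or *Ifi44*. The 200 bases before the start are shown for these 5 and for *Ifit2*, an IFIT gene with no match in this window, with each match in capitals. *Ifit2* had 2 annotated starts, neither with a match, and only the bases before the first are shown. A match on the opposite strand begins with TTTC in the printed letters.
Ifit1 (chr19:34640689-34640888, plus strand): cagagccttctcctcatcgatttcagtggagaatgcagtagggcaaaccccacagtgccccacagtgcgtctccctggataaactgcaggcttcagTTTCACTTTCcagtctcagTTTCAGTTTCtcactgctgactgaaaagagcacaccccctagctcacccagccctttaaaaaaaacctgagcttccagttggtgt
Ifit3 (chr19:34583329-34583528, plus strand): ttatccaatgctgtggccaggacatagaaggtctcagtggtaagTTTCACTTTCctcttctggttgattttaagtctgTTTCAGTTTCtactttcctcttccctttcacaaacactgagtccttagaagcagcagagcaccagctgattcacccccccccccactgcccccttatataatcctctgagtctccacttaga
Ifit3b (chr19:34607757-34607956, plus strand): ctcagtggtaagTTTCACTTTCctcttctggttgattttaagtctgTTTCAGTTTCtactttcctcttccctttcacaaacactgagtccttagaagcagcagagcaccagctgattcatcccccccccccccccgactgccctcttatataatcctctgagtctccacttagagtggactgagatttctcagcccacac
Ifit2 (chr19:34550494-34550693, plus strand): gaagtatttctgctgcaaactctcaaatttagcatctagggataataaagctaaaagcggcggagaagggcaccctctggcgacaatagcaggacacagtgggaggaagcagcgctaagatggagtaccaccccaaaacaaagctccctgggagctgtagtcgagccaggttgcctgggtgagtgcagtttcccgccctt
Isg15 (chr4:156200819-156201018, minus strand): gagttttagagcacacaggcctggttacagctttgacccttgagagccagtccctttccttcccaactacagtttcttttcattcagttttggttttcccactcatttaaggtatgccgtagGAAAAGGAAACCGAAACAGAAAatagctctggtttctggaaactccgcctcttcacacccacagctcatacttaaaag
Rsad2 (chr12:26456453-26456652, minus strand): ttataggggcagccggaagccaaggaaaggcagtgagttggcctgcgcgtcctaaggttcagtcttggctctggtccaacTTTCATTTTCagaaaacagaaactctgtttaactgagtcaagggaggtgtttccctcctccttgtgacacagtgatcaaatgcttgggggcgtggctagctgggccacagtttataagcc

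In *Ifit1* the matches began at bases -104 and -85 from the start, in *Ifit3* at -156 and -122 and in *Ifit3b* at -188 and -154. The spacing of the pair was the same in *Ifit3* and *Ifit3b*, whose promoters share an unbroken run of 169 bases when the second is shifted by 32 bases. In *Isg15* the capitals are 3 overlapping matches that began at -78, -72 and -66, and in *Rsad2* a single match began at -120. Both matches of *Ifit1* are also in the promoter of *Ifit1bl2*, which is read from the opposite strand. Among 50 other interferon-induced genes listed for comparison, 20 of the 41 with a promoter in the table held the core.

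**Figure D1:**
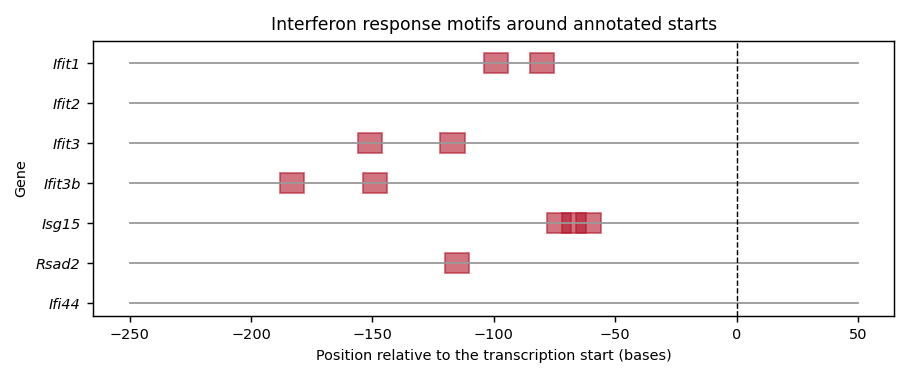
Position of the ISRE core in the promoters of the 7 members in RefSeq's table, as bases from the transcription start (dashed line) on the x axis, with 1 gene per row and each match drawn as a red block. The matches of 5 genes lie before the start, between -188 and -66, the rows of *Ifit2* and *Ifi44* are empty, and the 3 overlapping blocks of *Isg15* appear as darker red.

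Libraries held between 17007088 and 25136936 counts. *Apoe*, the targeted gene, was at 717 to 894 CPM (counts scaled to a common library size with TMM factors) in controls and at 7.28 to 14.8 CPM in the group labelled *Apoe* knockout. The labelled cell type was weakly borne out by its markers. The summed level of 22 endothelial genes was between 217 and 367 CPM over the 12 libraries and that of 13 neutrophil genes between 35128 and 91664 CPM, and *Cdh5*, which encodes VE-cadherin, had a median of 3.01 CPM. The values below are therefore levels in the sorted fraction. In such bulk samples, fewer cells of a type and less RNA per cell cannot be told apart.

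The members differed in level widely when their counts were set against exon length. In controls, *Isg15* was highest at 46.7 ± 9.39 CPM per kb (SD, n = 3), followed by *Rsad2* at 35.9 ± 7.77, *Rtp4* at 20.3 ± 1.42 and *Usp18* at 14.3 ± 1.62 CPM per kb. *Ifit3* was at 7.35 ± 2.34, *Ifit1* at 5.69 ± 0.921 and *Ifit2* at 5.01 ± 0.907 CPM per kb. *Ifit3b* at 2.73 ± 0.835, *Mx1* at 1.38 ± 0.336 and *Ifi44* at 0.268 ± 0.103 CPM per kb were lowest. Means ± SD of neighbors in this order overlapped for *Isg15* and *Rsad2* and for *Ifit3*, *Ifit1* and *Ifit2*. The first 4 places and the last 3 were the same in all 4 groups. In *Apoe*-/- mice the lowest and highest group levels were 0.949 CPM per kb for *Ifi44* and 118 CPM per kb for *Isg15*.

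In *Apoe*-/- mice 9 of the 10 genes were higher than in controls, by a median log2 fold change of 0.88, against 0.01 over all genes tested. The largest differences were those of *Ifi44*, *Rtp4*, *Isg15* and *Rsad2*, and *Ifit2* alone was not higher. None of the 10 passed an adjusted p of 0.05 in edgeR's quasi-likelihood test, which called 0.144% of all genes in this comparison. At an unadjusted p under 0.05, 6 members were higher, *Ifit1*, *Isg15*, *Rsad2*, *Mx1*, *Ifi44* and *Rtp4*, where 3.97% of all genes were. For 5 of these, all but *Isg15*, the 3 *Apoe*-/- mice were all above the 3 controls, where 5.06% of all genes were. The likelihood-ratio test of edgeR, which the study used, called 2 members, *Rsad2* and *Rtp4*, and 0.506% of all genes. DESeq2 called 3, *Rsad2*, *Rtp4* and *Ifi44*, and 0.437% of the genes it gave an adjusted p.

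**Figure D2:**
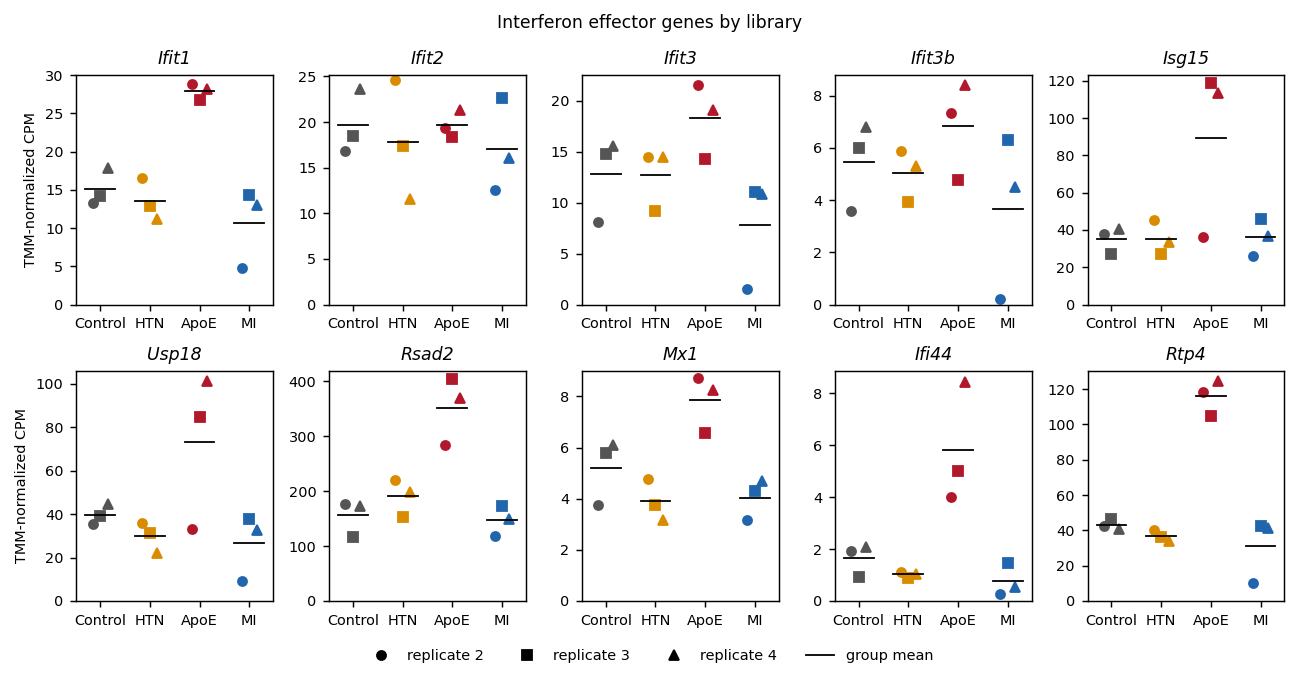
TMM-normalized CPM of each of the 10 genes on the y axis, with its own scale, in the 3 libraries of each group on the x axis, where the symbol gives the replicate number and the black line the group mean. For *Ifit1*, *Rsad2*, *Mx1*, *Ifi44* and *Rtp4* the 3 *Apoe*-/- libraries lie above all 3 controls, *Isg15* and *Usp18* are split within that group, and MI replicate 2 is the lowest point in 8 of the 10 panels.

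Among the IFIT genes, *Ifit1* separated *Apoe*-/- mice from controls and the others did not. *Ifit1* was at 13.3, 14.1 and 17.9 CPM in controls (replicates 2, 3 and 4, in this order for all values that follow) and at 28.9, 26.8 and 28.2 CPM in *Apoe*-/- mice. The log2 fold change was 0.89 ± 0.31 (SE), with an adjusted p of 0.67 in edgeR's quasi-likelihood test, although the group means stood at 15.1 ± 2.45 and 27.95 ± 1.07 CPM (SD, n = 3). *Ifit2* was at 16.8, 18.5 and 23.7 CPM in controls and at 19.3, 18.3 and 21.3 CPM in *Apoe*-/- mice. Its groups overlapped completely, with a log2 fold change of -0.0022 ± 0.26. *Ifit3* was at 8.13, 14.8 and 15.6 CPM in controls and at 21.6, 14.3 and 19.1 CPM in *Apoe*-/- mice, a log2 fold change of 0.51 ± 0.49. *Ifit3b* was at 3.59, 6.01 and 6.79 CPM in controls and at 7.34, 4.76 and 8.40 CPM in *Apoe*-/- mice, a log2 fold change of 0.32 ± 0.63. In both genes, which share much of their sequence, *Apoe*-/- replicate 3 lay within the range of the controls.

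The ISG15 modifier and its protease were split in the same way among the *Apoe*-/- mice. *Isg15* was at 38.1, 27.2 and 40.6 CPM in controls and at 36.2, 119 and 114 CPM in *Apoe*-/- mice. *Usp18* was at 35.6, 39.1 and 44.6 CPM in controls and at 33.2, 84.6 and 101 CPM in *Apoe*-/- mice. For both genes, replicate 2 of the *Apoe*-/- mice was within or just below the range of controls and replicates 3 and 4 were far above them. The log2 fold change was 1.34 ± 0.37 for *Isg15* (adjusted p = 0.40 in edgeR's quasi-likelihood test) and 0.88 ± 0.45 for *Usp18* (adjusted p = 0.86). When a library of either group was left out, the adjusted p ranged from 0.014 to 0.98 for *Isg15* and from 0.52 to 0.99 for *Usp18*. The lowest values were those without *Apoe*-/- replicate 2, where the log2 fold changes were 1.73 for *Isg15* and 1.24 for *Usp18*. The same library was not low for *Ifit1* or *Rtp4*, and it was the highest of all 12 for 3 members, *Ifit1*, *Ifit3* and *Mx1*. It had the lowest neutrophil sum (35128 CPM), the lowest erythroid sum (10932 CPM) and the highest B cell sum (1208 CPM) of the 12 libraries, and the part of these in the split was not tested.

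Enzymes that join ISG15 to proteins were measured as 4 further genes, all higher in *Apoe*-/- mice and none called (0 of 4). *Ube2l6*, the conjugating enzyme, had a log2 fold change of 0.64 ± 0.21, *Uba7*, the activating enzyme, of 0.50 ± 0.20, *Herc6*, the main ligase in mice, of 0.41 ± 0.21, and *Trim25*, a ligase for ISG15 and ubiquitin, of 0.39 ± 0.16. *Ube2l6* was above controls in hypertension too, at 1137, 1008 and 1329 CPM against 770, 644 and 724 CPM in controls, a log2 fold change of 0.70 ± 0.21 with an adjusted p of 0.95 in edgeR's quasi-likelihood test.

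*Rsad2*, which encodes viperin, came nearest to the threshold. It was at 177, 117 and 173 CPM in controls and at 283, 404 and 368 CPM in *Apoe*-/- mice, a log2 fold change of 1.18 ± 0.22 with an adjusted p of 0.067 in edgeR's quasi-likelihood test. Its adjusted p ranged from 6.7e-06 to 0.45 over the alternatives tried. The lowest *Apoe*-/- mouse was well above the highest control, and without that mouse, replicate 2, the log2 fold change was 1.32 with an adjusted p of 0.031. *Cmpk2*, which lies beside *Rsad2* on chromosome 12, in the opposite direction, and encodes a nucleotide kinase, was at 134, 149 and 186 CPM in controls and at 142, 195 and 273 CPM in *Apoe*-/- mice. Its groups overlapped, with a log2 fold change of 0.38 ± 0.23.

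*Rtp4*, *Ifi44* and *Mx1* each had all *Apoe*-/- mice above all controls. *Rtp4* was at 42.2, 46.6 and 40.8 CPM in controls and at 118, 105 and 125 CPM in *Apoe*-/- mice, a log2 fold change of 1.42 ± 0.37 with an adjusted p of 0.32 in edgeR's quasi-likelihood test. With only these groups in the fit, which leaves out mice with MI and with hypertension, the adjusted p was 0.049. Over the alternatives tried, the adjusted p of *Rtp4* ranged from 2.4e-09 to 0.88. *Ifi44* was at 1.91, 0.921 and 2.09 CPM in controls and at 4.00, 4.99 and 8.45 CPM in *Apoe*-/- mice, a log2 fold change of 1.81 ± 0.48 with an adjusted p of 0.34. It was the least abundant member, with 554 counts over all libraries. *Mx1* was at 3.76, 5.79 and 6.09 CPM in controls and at 8.72, 6.58 and 8.25 CPM in *Apoe*-/- mice, a log2 fold change of 0.59 ± 0.26 with an adjusted p of 0.82. Its groups did not overlap, although the gap between the highest control and the lowest *Apoe*-/- mouse was small. The paralog *Mx2*, a pseudogene in some strains, was at 1.01 to 2.06 CPM in controls and 1.47 to 3.36 CPM in *Apoe*-/- mice, and *Ifi44l*, the neighbor of *Ifi44*, had 0 counts in every library.

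**Figure D3:**
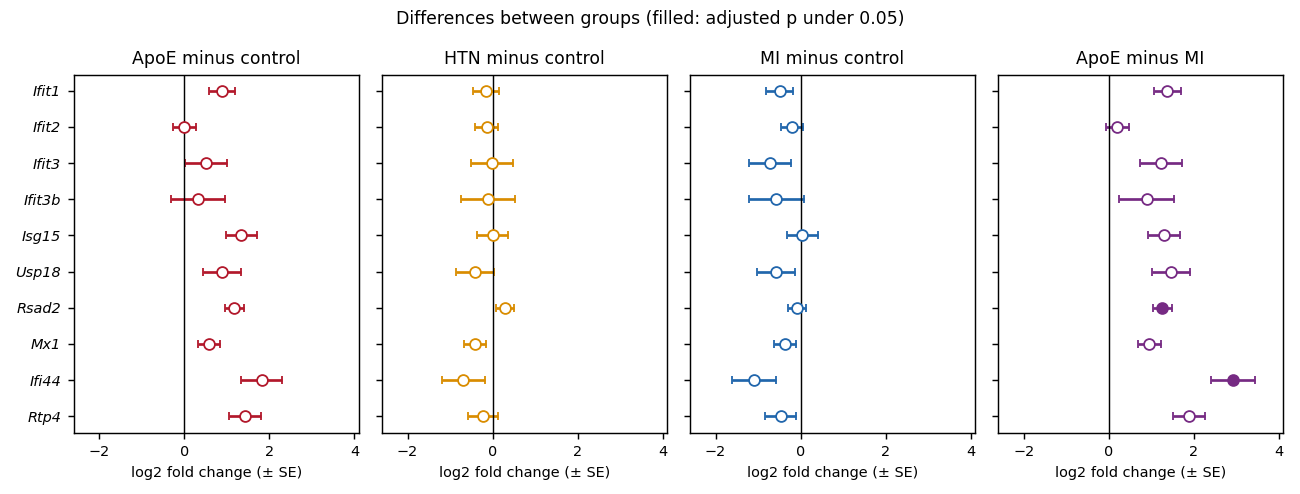
Log2 fold change of each gene (x axis) with its standard error (bars) in 4 comparisons, from 1 fit of edgeR's quasi-likelihood model to all 12 libraries, with filled points where the adjusted p was under 0.05. Apart from *Ifit2*, the points lie to the right of 0 for *Apoe*-/- mice minus controls, they scatter around or below 0 for hypertension and MI minus controls, and *Ifi44* and *Rsad2* are filled for *Apoe*-/- mice minus MI.

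In hypertension the 10 genes stood close to controls. Of them, 8 were lower and 2 higher, of which *Isg15*, at 0.0008, turned to -0.0018 with RLE factors, with a median log2 fold change of -0.15, between -0.69 for *Ifi44* and 0.29 for *Rsad2*. None was called by edgeR's quasi-likelihood test, its likelihood-ratio test or DESeq2. The quasi-likelihood test called 0% of all genes and gave none of the 10 an unadjusted p under 0.05, where 3.71% of all genes had one. *Rtp4*, at 40.4, 36.3 and 33.8 CPM against at least 40.8 CPM in controls, was the only member whose groups did not overlap, all lower, where 7.81% of all genes were. Its log2 fold change was -0.23 ± 0.36. *Isg15* was at 45.5, 27.2 and 33.3 CPM and *Rsad2* at 219, 153 and 198 CPM, both in part above the highest control. *Usp18* was at 36.0, 31.4 and 22.1 CPM, *Mx1* at 4.77, 3.77 and 3.15 CPM and *Ifi44* at 1.13, 0.876 and 1.05 CPM, with 2 mice below all controls for *Usp18* and 1 for *Mx1* and for *Ifi44*. For *Mx1* and *Usp18*, replicate 4 was the lowest mouse with hypertension, as it was for *Ifit1*, at 16.5, 12.8 and 11.2 CPM, and *Ifit2*, at 24.6, 17.3 and 11.6 CPM. *Ifit3*, at 14.5, 9.15 and 14.5 CPM, and *Ifit3b*, at 5.90, 3.94 and 5.31 CPM, stayed within the range of controls and were lowest in replicate 3.

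In MI 9 of the 10 genes were below controls and their median log2 fold change was -0.48, but a single library made up most of that difference. None was called by these 3 tests. The quasi-likelihood test called 0% of all genes, and under it none of the 10 had an unadjusted p under 0.05, where 2.8% of all genes did. MI replicate 2 was the lowest of the 12 libraries for 8 members. *Rtp4* was at 10.05 CPM there and at 42.7 and 41.1 CPM in the other MI mice, which is the level of controls. *Usp18* was at 9.22 CPM against 37.8 and 32.6 CPM, *Ifit1* at 4.80 CPM against 14.3 and 13.03 CPM, and *Ifit3* at 1.55 CPM against 11.0 and 10.9 CPM. *Ifit3b* was at 0.221 CPM, where 3 counts correspond to 0.166 CPM, against 6.30 and 4.52 CPM. *Rsad2*, at 118 CPM against 174 and 149 CPM, and *Isg15*, at 26.3 CPM against 45.8 and 36.8 CPM, were much less reduced in this library. *Mx1*, at 3.15 CPM against 4.29 and 4.69 CPM, and *Ifit2*, at 12.6 CPM against 22.6 and 16.05 CPM, were also low there, although a mouse with hypertension was lower for *Ifit2* and a control for *Rsad2*. Without MI replicate 2 the median log2 fold change was -0.09. *Ifi44*, at 0.276, 1.48 and 0.521 CPM, was the member with the lowest log2 fold change, -1.10 ± 0.52, and stayed at -0.71 without that library.

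**Figure D4:**
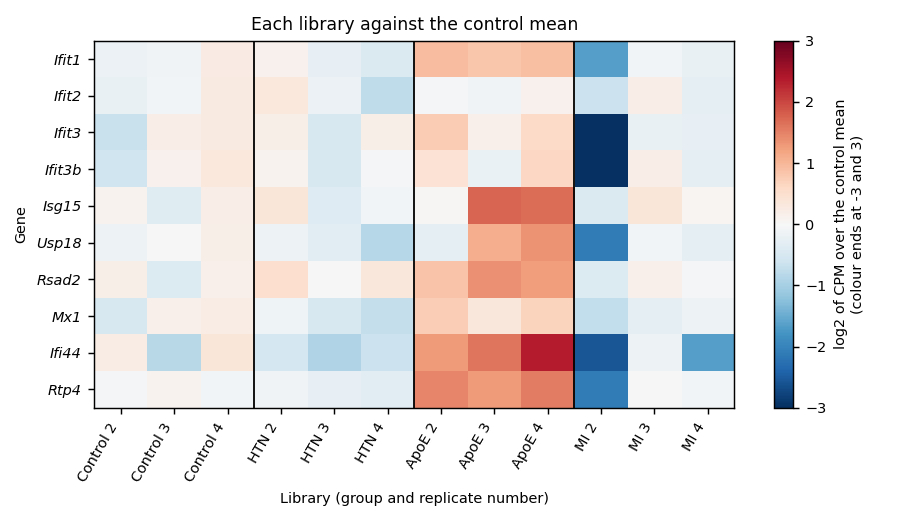
Log2 of each library's CPM over the mean of the controls (color), with 1 gene per row and 1 library per column, grouped as controls, HTN, *Apoe*-/- and MI. *Apoe*-/- columns are red in most rows, with the row of *Ifit2* pale throughout and *Isg15* and *Usp18* pale in replicate 2, and the column of MI replicate 2 is blue in every row, least so for *Rsad2* and *Isg15*.

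Set against each other, the disease groups differed for some of these genes. All 10 were higher in *Apoe*-/- mice than in mice with MI, with a median log2 fold change of 1.28, and 2 were called by edgeR's quasi-likelihood test, where 0.269% of all genes were. These were *Ifi44*, with a log2 fold change of 2.92 ± 0.52 and an adjusted p of 0.040, and *Rsad2*, with 1.26 ± 0.22 and an adjusted p of 0.037. At an unadjusted p under 0.05, 8 members were higher, all but *Ifit2* and *Ifit3b*, where 7.36% of all genes were, and for 6 the groups did not overlap, where 7.44% of all genes were. Leaving out any single library of either group gave between 0 and 3 calls. The count was 0 without *Apoe*-/- replicate 3, *Apoe*-/- replicate 4 or MI replicate 4, 1 without MI replicate 2 or MI replicate 3 and 3 without *Apoe*-/- replicate 2. Without both MI replicate 2 and *Apoe*-/- replicate 2, a choice made after seeing the data, it was 5, and the median log2 fold change was 1.13.

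Compared with hypertension, all 10 genes were likewise higher in *Apoe*-/- mice, with a median log2 fold change of 1.03. None was called by edgeR's quasi-likelihood test, which called 0.0625% of all genes, while its likelihood-ratio test and DESeq2 each called 3, *Ifi44*, *Rsad2* and *Rtp4*, where they called 0.438% and 0.375% of the genes tested. At an unadjusted p under 0.05, 7 members were higher, where 3.86% of all genes were, and for 5 the groups did not overlap, where 5.81% of all genes were. These 5, *Ifit1*, *Rsad2*, *Mx1*, *Ifi44* and *Rtp4*, were also the members that did not overlap between *Apoe*-/- mice and controls, and the *Apoe*-/- libraries are shared by both comparisons. Without *Apoe*-/- replicate 2, edgeR's quasi-likelihood test called 1 member, *Isg15*. Between MI and hypertension the median log2 fold change was -0.29 and 0.11 without MI replicate 2. None of the 10 was called by any of the 3 tests. In the quasi-likelihood test, which called 0% of all genes, none had an unadjusted p under 0.05, where 8.41% of all genes did.

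Sums of markers of other marrow cells did not all follow these genes. That of B cells was 1208, 466 and 461 CPM in *Apoe*-/- mice, against 475 to 645 CPM in controls. The sum of 10 markers of plasmacytoid dendritic cells, which secrete type I interferon and express interferon-induced genes at high levels, was 401 to 438 CPM in *Apoe*-/- mice, 312 to 371 CPM in controls, 286 to 324 CPM in hypertension and 156 to 281 CPM in MI. All 10 markers were in the table, none was at 0 in all libraries, and 9 had a count in every library. The lowest sum of the 12, 156 CPM, was that of MI replicate 2, which also had the lowest sum of 10 B cell markers, at 188 CPM. The same library had the highest neutrophil sum of the 12, at 91664 CPM, and the highest sum of 8 monocyte markers, at 2063 CPM. *Apoe*-/- mice did not overlap with controls or with mice with MI in the plasmacytoid sum, and the exact two-sided permutation p was 0.1 for each, the smallest that 3 against 3 libraries allow. With 9 marker lists in 6 comparisons, 54 such tests were made, and the smallest p adjusted over them was 0.386. *Siglech*, a defining marker of these cells, ranged from 24.2 to 93.0 CPM, while the sort and the depletion should remove cells that carry CD45 or B220. The sum of 13 macrophage markers was higher in *Apoe*-/- mice than in controls as well, by a ratio of 1.39 (exact two-sided permutation p = 0.1), whereas that of endothelial markers, 238 to 367 CPM in *Apoe*-/- mice, overlapped with controls.

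With the share of plasmacytoid markers as a covariate in the fit, the median log2 fold change of the 10 genes was 0.44 instead of 0.88 for *Apoe*-/- mice against controls, 0.21 instead of -0.48 for MI against controls and 0.11 instead of 1.28 for *Apoe*-/- mice against MI. *Ifit3* and *Ifit3b* were then lower in *Apoe*-/- mice than in controls, at -0.38 and -0.95, while *Rsad2* stayed at 1.12 and *Isg15* at 1.25. With the share of endothelial markers as the covariate the median for *Apoe*-/- mice against controls was 0.82, and with that of monocyte markers 0.78. In the plasmacytoid share, *Apoe*-/- mice, controls and mice with MI did not overlap, so that fit cannot separate the share from the group. The part of any of these cells in the levels of the 10 genes was not tested.

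**Figure D5:**
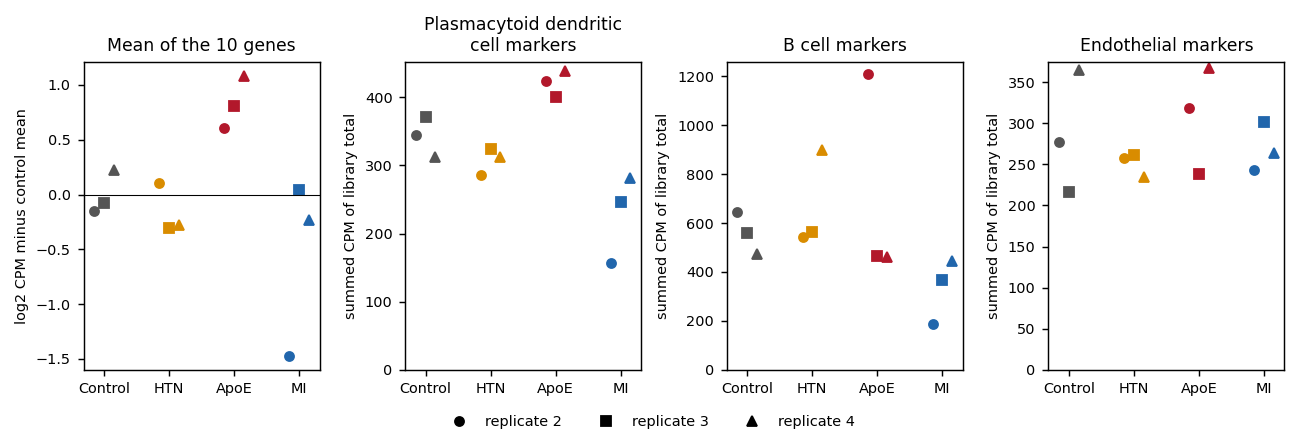
Mean of the 10 genes in each library as log2 CPM minus the control mean (left), and the summed CPM of plasmacytoid dendritic cell, B cell and endothelial markers (y axes from 0), by group on the x axis, with symbols for the replicate number. The mean of the 10 genes and the plasmacytoid sum are highest in the 3 *Apoe*-/- libraries and lowest in MI replicate 2, while the endothelial sums of the groups overlap.

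The genes upstream of the effectors were less clearly changed, and the interferons themselves were almost absent. Of 20 interferon genes, 13 had no count in any library, and 1, *Ifng*, had enough counts to be tested. All type I and type III interferon genes together had 25 counts over the 12 libraries, and no such gene had more than 4 counts in a library. *Ifng*, the interferon of T and natural killer cells, was at 0.659 to 1.07 CPM in controls, 0.881 to 1.32 CPM in *Apoe*-/- mice and 0.110 to 0.463 CPM in MI. *Ifng* had 164 counts over all libraries, and its 0.110 CPM in MI replicate 2 was under the 0.166 CPM that 3 counts correspond to there. Its log2 fold change was 0.32 ± 0.44 in *Apoe*-/- mice and -1.48 ± 0.50 in MI, with an adjusted p of 0.95 and 1.00 in edgeR's quasi-likelihood test. All 6 receptor genes were tested and none was called. The receptor subunits with the largest difference in *Apoe*-/- mice, *Ifngr1* and *Ifnlr1*, had log2 fold changes of -0.25 ± 0.19 and -0.17 ± 0.27.

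Of 14 genes of JAK-STAT signaling, 10 were higher in *Apoe*-/- mice and none was called, with a median log2 fold change of 0.12. *Irf9*, the DNA-binding subunit that recognizes the ISRE, had the largest difference. It was at 70.5, 83.5 and 83.9 CPM in controls, at 137, 101 and 152 CPM in *Apoe*-/- mice and at 42.1, 77.4 and 68.1 CPM in MI, and its log2 fold change in *Apoe*-/- mice was 0.71 ± 0.21. *Socs3*, a feedback inhibitor of cytokine receptors, had 0.62 ± 0.56 and *Jak1* 0.46 ± 0.31. Of 18 tested sensors and regulators of the interferon response, 13 were higher and none was called. *Irf7*, the transcription factor that amplifies type I interferon production and is abundant in plasmacytoid dendritic cells, was at 78.4, 88.4 and 105 CPM in controls, at 228, 172 and 213 CPM in *Apoe*-/- mice and at 29.5, 101 and 76.3 CPM in MI. Its groups did not overlap between *Apoe*-/- mice and controls, with a log2 fold change of 1.17 ± 0.33 and an adjusted p of 0.40 in edgeR's quasi-likelihood test. *Mavs*, the adaptor of cytosolic RNA sensors, had 0.70 ± 0.24 and *Zbp1*, a sensor of Z-form nucleic acid, 0.64 ± 0.20.

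Most of the other interferon-induced genes listed were higher in *Apoe*-/- mice. Of the 50 listed, 47 were higher, with a median log2 fold change of 0.52, and 24 had an unadjusted p under 0.05 and were higher, set against 3.97% of all genes. Called were 2, where 0.144% of all genes were. They were *Oas1g*, a member of the oligoadenylate synthetase family, with a log2 fold change of 2.16 ± 0.31 and an adjusted p of 0.019 in edgeR's quasi-likelihood test, and *Lgals3bp*, a secreted glycoprotein gene, with 1.16 ± 0.19 and an adjusted p of 0.034. *Oas2* had a log2 fold change of 2.04 ± 0.43 and *Oasl2*, an antiviral paralog, of 1.40 ± 0.45, with adjusted p values of 0.16 and 0.57. Against MI, where 0.269% of all genes were called, 4 of the 50 were, *Oas1g*, *Oas1a*, *Lgals3bp* and *Parp9*, with log2 fold changes from 0.81 for *Parp9* to 2.91 for *Oas1g*. *Oas1g* and *Oas1a* were also called against hypertension, at 3.07 and 1.79, where 0.0625% of all genes were. The 4 measured paralogs and neighbors of the members had a median log2 fold change of 0.28 in *Apoe*-/- mice against controls. Of these, *Ifit1bl1* was at 2.97 to 7.14 CPM in controls and 2.64 to 4.63 CPM in *Apoe*-/- mice, and *Ifit1bl2* at 10.5 to 16.4 CPM in controls and 4.09, 12.9 and 30.5 CPM in *Apoe*-/- mice, so that neither separated the groups.

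The profile of the 10 genes over the 12 libraries was best represented by *Ifit1*, whose root mean square difference from their mean profile, on the log2 scale and centered on controls, was 0.12. *Ifit3b* and *Isg15* were farthest, at 0.56 and 0.52. Of 13417 other genes with a mean of at least 1 CPM, whose median difference was 0.69, the nearest were *Xaf1* at 0.24, *Abcg3* at 0.25, *Cd8a* at 0.25, *Irf9* at 0.26 and *Irf7* at 0.27. *Xaf1*, a proapoptotic interferon-induced gene, had a log2 fold change of 0.85 in *Apoe*-/- mice and -0.44 in MI. *Abcg3*, which encodes a transporter, had 0.62 and -0.66, and *Cd8a*, which encodes a coreceptor of T cells and of some dendritic cells, had 0.75 and -0.76. None of the 5 was called in a comparison with controls or between *Apoe*-/- mice and MI. The sum of 9 T and NK cell markers, *Cd8a* among them, did not follow *Cd8a*. It was 393 to 591 CPM in *Apoe*-/- mice, 559 to 799 CPM in controls and 435 to 711 CPM in MI.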

How the data were processed

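RNA was measured in sorted marrow endothelial cells of 12 mice, 3 in each of 4 groups, with a different mouse for each library. Per the study's methods and labels, libraries of polyadenylated RNA were strand-specific, and the authors aligned single-end reads to GRCm38.p6 with STAR 2.7.3a and deposited the GeneCounts output as raw counts per Ensembl gene, without normalization. Which of the strand columns was taken is not given in the sources used here. All columns of the table were used. Positions come from the GENCODE annotation of GRCm38, which held 55240 of the 55421 genes.

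Groups were compared in edgeR 4.0.16 under R 4.3.3. After filterByExpr had dropped scarce genes and libraries had been scaled by TMM, a quasi-likelihood model with 1 coefficient per group was fitted to all 12 libraries. P values were two-sided and adjusted by the Benjamini-Hochberg method over 15999 genes, and a gene was called at an adjusted p under 0.05. Standard errors were obtained as the ratio of the log2 fold change to the root of its F value. Levels are TMM-normalized CPM, marker sums are CPM of the library total, and a limit of 3 counts, which covers counting error only, was used for the lowest level. Marker sums were compared by exact permutation tests. The steps were tested on simulated counts. The members and lists were chosen with earlier results of these data known. Named were all members, their paralogs and neighbors, the ISG15 enzymes, genes of the other lists called in any comparison, the 3 with the largest difference in *Apoe*-/- mice per list, and the 5 with the nearest profile. Isoforms were not separated, and sequences come from RefSeq (GRCm38.p6).

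Alternatives were the likelihood-ratio test of edgeR, DESeq2 1.42.0, RLE factors, a filter of 1 count in total or of 10 counts per library, a fit to the compared groups alone, a replicate block, omission of immunoglobulin and hemoglobin genes, endothelial, monocyte or plasmacytoid dendritic cell marker shares as covariates, an adjusted p under 0.1, and each library left out in turn.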

Additional observations from a re-analysis of the deposited data

Results flagged for a closer look

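The difference between *Apoe*-/- mice and mice with MI passed edgeR's quasi-likelihood test for 2 of the 10 genes, a call that depended on the setting. In that test, their differences from the shared controls differed between these disease groups. For *Ifi44* the log2 fold change between them was 2.92, from 1.81 above controls in *Apoe*-/- mice and -1.10 in MI, with an adjusted p of 0.040 in edgeR's quasi-likelihood test. All 3 *Apoe*-/- mice, at 4.00 to 8.45 CPM, were above all 3 mice with MI, at 0.276 to 1.48 CPM. Over the alternatives its adjusted p ranged from 4.8e-10 to 0.80, and the call was lost in 9 of 17. For *Rsad2* the log2 fold change was 1.26, from 1.18 in *Apoe*-/- mice and -0.08 in MI, with an adjusted p of 0.037. Its range over the alternatives was from 4.0e-07 to 0.72, and the call was lost in 10 of 18. All 3 *Apoe*-/- mice, at 283 to 404 CPM, were above all 3 mice with MI, at 118 to 174 CPM. Without MI replicate 2, the log2 fold changes were 2.52 and 1.12, with adjusted p values of 0.13 and 0.14 in edgeR's quasi-likelihood test. That library is low in most of the 10 genes and has the lowest plasmacytoid dendritic cell and B cell marker sums. It also has the highest neutrophil and monocyte marker sums. The part of these cell types in either difference was not tested. Groups of 3 libraries are too small for a test of single outlying libraries.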

How the results depend on the processing

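Depth limits *Ifi44*, *Mx1* and *Ifit3b* most, with 554, 1274 and 1288 counts in all. Their lowest counts in a library were 5, 57 and 4. The number of members called depended on the test. For *Apoe*-/- mice against controls it was 0, and 2 with the likelihood-ratio test, 3 with DESeq2, 6 with a filter of 1 count in total (0.506%, 0.437% and 1.2% of the genes tested), 1 with only the groups compared and 1 at an adjusted p under 0.1. It was between 0 and 2 when a library was left out (2 without *Apoe*-/- replicate 2) and 4 without both MI replicate 2 and *Apoe*-/- replicate 2. For *Apoe*-/- mice against MI it was 2, and 5, 7 and 7 with the first 3 of these settings (1.71%, 1.71% and 2.19% of the genes tested). It was 1 with at least 10 counts in every library, where *Ifi44* and *Ifit3b* were not tested, and 4 at an adjusted p under 0.1. It was 0 with only the groups compared, with the replicate number as a block and with each of the 3 marker shares as a covariate. It was between 0 and 3 when a library was left out and 5 without both. For *Apoe*-/- mice against hypertension it was 0, and 3, 3 and 6 with the first 3 settings (0.438%, 0.375% and 0.653%), 1 with only the groups compared and between 0 and 1 when a library was left out. In all runs made for MI and hypertension against controls and for MI against hypertension it stayed 0. The medians of *Apoe*-/- mice against controls, MI and hypertension were 0.44, 0.11 and 0.50 with the plasmacytoid share as a covariate. *Apoe*-/- mice did not overlap with any other group in that share, so the fit cannot separate the share from the group. The causes were not tested.

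Same-numbered mice did not deviate together in every pair, with correlations between -0.28 and 0.30, and the labels do not say that numbers pair mice. The replicate block changed no call of a member other than those of *Ifi44* and *Rsad2* against MI, and under it the log2 fold change of *Ifit3* in hypertension was 0.057.

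Directions turned for differences that were not called. With the plasmacytoid share, the log2 fold changes against controls were -0.38 for *Ifit3* and -0.95 for *Ifit3b* in *Apoe*-/- mice; 0.23 for *Ifit1*, 0.63 for *Ifit3*, 1.20 for *Ifit3b*, 0.39 for *Usp18*, 0.020 for *Rsad2* and 0.73 for *Rtp4* in MI; and 0.044 for *Ifit1*, 0.41 for *Ifit3*, 0.45 for *Ifit3b* and 0.14 for *Rtp4* in hypertension. For *Apoe*-/- mice against MI they were -0.074 for *Ifit2*, -1.01 for *Ifit3*, -2.15 for *Ifit3b*, -0.11 for *Usp18* and -0.00021 for *Rtp4*, and against hypertension -0.0077 for *Ifit2*, -0.79 for *Ifit3* and -1.41 for *Ifit3b*. With the endothelial share, *Ifit3* and *Ifit3b* were at 0.091 and 0.058 in hypertension against controls and *Ifit2* at -0.049 in *Apoe*-/- mice against hypertension. *Isg15* in hypertension against controls was at -0.0018 with RLE factors, -0.11 with the monocyte share and -0.0054 with only the groups compared. *Ifit2* in *Apoe*-/- mice against controls was at 0.0070 with at least 10 counts in every library, 0.0028 without immunoglobulin and hemoglobin genes, 0.0044 with only the groups compared and 0.010 without MI replicate 2 and *Apoe*-/- replicate 2. Leaving out a library gave -0.11 to 0.16 for *Ifit2* in *Apoe*-/- mice against controls and -0.092 to 0.44 against hypertension. In MI against controls it gave -0.26 to 0.050 for *Rsad2*, which was at 0.051 without both replicates, and -0.16 to 0.23 for *Isg15*. In hypertension against controls it gave -0.44 to 0.094 for *Ifit2*, -0.26 to 0.17 for *Ifit3*, -0.34 to 0.082 for *Ifit3b* and -0.22 to 0.16 for *Isg15*.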
